A study of Mus musculus with 32 samples.

Results

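Livers of old mice given metformin (MET) were set directly against livers of old mice under lifelong calorie restriction (LTCR), with no control array in the fit. The members were chosen by title alone: the 4 arrays titled MET and the 4 titled LTCR, 8 of the 32 arrays of the series, over all 12422 probe sets that are not array controls. MET mice ate the control diet from 5 to 20 months of age and then that diet with metformin mixed in for 8 weeks. LTCR mice received 52.2 kcal per week of a restricted diet, about 40% fewer calories than controls, from 5 months of age to the end. Its protein, vitamins and minerals were enriched to match the controls' intake per gram of body weight, per the labels. Control mice (CON), used below for levels only, ate 93 kcal per week of the control diet throughout. The 8 groups of the series hold 4 arrays each.

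All mice were males of the B6C3F1 hybrid and were housed singly from 5 months. They died at 22 months, when they had fasted for 48 hours, so every liver was fasted, and no fed liver was compared. MET and LTCR differ in the drug, in calorie restriction, in diet composition, in the age at onset and in the length of treatment, and these cannot be told apart here. The dose, the calories eaten by MET mice and the hour of death are not given in the sources used here. The labels do not say whether a liver gave more than 1 RNA preparation, so each array was taken as 1 mouse.

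Metformin is a biguanide drug against type 2 diabetes that lowers glucose output by the liver, inhibits respiratory complex I and raises AMPK activity. Calorie restriction lowers insulin and favours the fasting programme of the liver, in which glucagon, glucocorticoids and the fatty acid receptor PPAR alpha raise gluconeogenesis, amino acid breakdown and fat oxidation. Metformin is studied as a calorie restriction mimetic, an agent that gives effects of restriction without eating less. Sterol synthesis genes are transcribed by SREBP factors, which are released from the endoplasmic reticulum when sterols are low. Interferon-induced genes are transcribed by STAT and IRF factors and make up a defence programme of hepatocytes and of Kupffer cells, the resident macrophages of the liver.

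The 2 gene lists with the largest share of members called in 1 direction were those of cholesterol synthesis and uptake and of interferon-induced genes. Their called members were higher in MET livers. Promoter stretches of 3 members of each are shown because each list has a known element: the sterol regulatory element, searched as TCACNCCAC, and the core of the interferon-stimulated response element, searched as GAAANNGAA. Each stretch is the 250 bases before the gene's start in RefSeq (GRCm38.p6), printed in the gene's direction, with matches on either strand in capitals. The first 3 encode isopentenyl-diphosphate isomerase (Idi1, chr13:8885356-8885605, plus strand), a sterol C4-demethylating oxidase (Msmo1, chr8:64733579-64733828, minus strand) and HMG-CoA synthase of the sterol pathway (Hmgcs1, chr13:119690101-119690350, plus strand). The next 3 encode a ubiquitin-like protein that is attached to other proteins after interferon (Isg15, chr4:156200819-156201068, minus strand), an immunity-related GTPase (Igtp, chr11:58199306-58199555, plus strand) and a secreted galectin-3-binding glycoprotein (Lgals3bp, chr11:118401960-118402209, minus strand).
Idi1: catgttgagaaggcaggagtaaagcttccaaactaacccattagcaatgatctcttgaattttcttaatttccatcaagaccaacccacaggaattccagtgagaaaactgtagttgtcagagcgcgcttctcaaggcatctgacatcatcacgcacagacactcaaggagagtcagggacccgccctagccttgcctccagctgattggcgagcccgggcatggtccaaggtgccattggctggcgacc
Msmo1: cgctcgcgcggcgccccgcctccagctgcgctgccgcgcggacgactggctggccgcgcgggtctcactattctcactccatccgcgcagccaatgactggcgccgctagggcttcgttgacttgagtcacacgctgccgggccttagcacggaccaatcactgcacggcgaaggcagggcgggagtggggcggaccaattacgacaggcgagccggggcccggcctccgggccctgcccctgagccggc
Hmgcs1: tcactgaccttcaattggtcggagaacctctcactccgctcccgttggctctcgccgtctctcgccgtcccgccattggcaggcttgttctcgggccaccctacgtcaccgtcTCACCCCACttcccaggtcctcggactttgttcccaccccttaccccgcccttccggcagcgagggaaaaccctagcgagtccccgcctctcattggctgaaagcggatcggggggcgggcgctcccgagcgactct
Isg15: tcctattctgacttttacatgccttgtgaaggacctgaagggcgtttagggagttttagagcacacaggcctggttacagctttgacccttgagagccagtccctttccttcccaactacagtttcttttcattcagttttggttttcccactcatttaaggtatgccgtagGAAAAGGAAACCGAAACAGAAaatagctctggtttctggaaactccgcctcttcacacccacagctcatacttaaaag
Igtp: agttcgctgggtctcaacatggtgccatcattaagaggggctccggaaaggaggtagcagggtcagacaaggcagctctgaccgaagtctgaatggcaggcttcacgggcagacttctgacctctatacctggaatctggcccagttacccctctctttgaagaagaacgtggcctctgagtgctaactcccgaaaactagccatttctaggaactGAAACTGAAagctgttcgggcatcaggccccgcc
Lgals3bp: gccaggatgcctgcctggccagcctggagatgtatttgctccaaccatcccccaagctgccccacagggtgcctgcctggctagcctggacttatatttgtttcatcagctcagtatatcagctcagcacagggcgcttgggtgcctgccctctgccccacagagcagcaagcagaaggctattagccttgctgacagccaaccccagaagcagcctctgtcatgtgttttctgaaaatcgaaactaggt

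The sterol element was present in 1 of the 6 called sterol genes that had a promoter entry (Hmgcs1) and in 346 of 32851 windows of the same length (1.05%). The interferon element core was present in 3 of 6 called interferon genes with an entry (Isg15, Igtp and Gbp3) and in 2342 of 32851 windows (7.13%). In Isg15 there were 3 matches, which overlapped each other. Sqle, Fdft1 and Iigp1 had no entry. The heat shock element cores GAANNTTC and TTCNNGAA (6.69% and 7.17% of windows), the element part CCACG of the endoplasmic reticulum stress response (28.3%) and the E-box CACGTG (6.02%) were each present in at most 2 of the 6 windows of either list. A match describes letters in this window and says nothing on binding.

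RNA was measured on Affymetrix MG-U74Av2 arrays, and each value is a scaled linear intensity per probe set in arbitrary units. Column medians were 148.1 to 163.6 on MET arrays and 157.95 to 161.05 on LTCR arrays. The 3'/5' ratio of Gapdh, a sign of RNA integrity, was 0.768 to 0.854 on MET arrays and 0.845 to 0.878 on LTCR arrays. Pearson correlations of the log2 values were 0.955 to 0.972 within MET, 0.964 to 0.971 within LTCR and 0.939 to 0.958 between them. Of 9 hepatocyte markers, 1 was called higher and 1 lower, and their summed intensity was 182830 to 196645 on MET arrays and 186625 to 212987 on LTCR arrays. Arrays give no counting depth, so 4 arrays a group set the precision.

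A probe set is called where its adjusted p (limma, Benjamini-Hochberg over 7503 probe sets above the 40th percentile of mean intensity) was under 0.05. Differences are MET minus LTCR on the scale of log2(intensity + 28.8), which understates changes of dim genes. The value after ± is the SE of the fit for a difference and the SD over 4 arrays for an intensity. Of 7503 probe sets, 282 were called (3.76%), 200 higher in MET livers (2.67%) and 82 lower (1.09%). Of the calls, 68 were higher by at least 1 on the log2 scale and 16 lower by at least 1. The 4 MET arrays lay wholly above or below the 4 LTCR arrays for 934 probe sets (12.4%), which include 277 of the 282 calls. With 1 probe set per gene, the brightest, 165 of 5640 genes were called higher (2.93%) and 70 lower (1.24%), against a median difference over all 5640 genes of -0.02. These last shares are the background for every list count of this fit below. With the spread pooled over 8 groups, 442 of 7503 probe sets were called higher and 322 lower. Over the 7 groups without CON, 421 were called higher and 298 lower, and these are the background for list counts with a pooled spread. The number of called probe sets moved from 282 to 104 without MET 1, 109 without MET 4, 112 without LTCR 4, 114 without LTCR 2, 146 without LTCR 1, 184 without LTCR 3 and 466 without MET 3, and was 207 without MET 2.

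**Figure D1:**
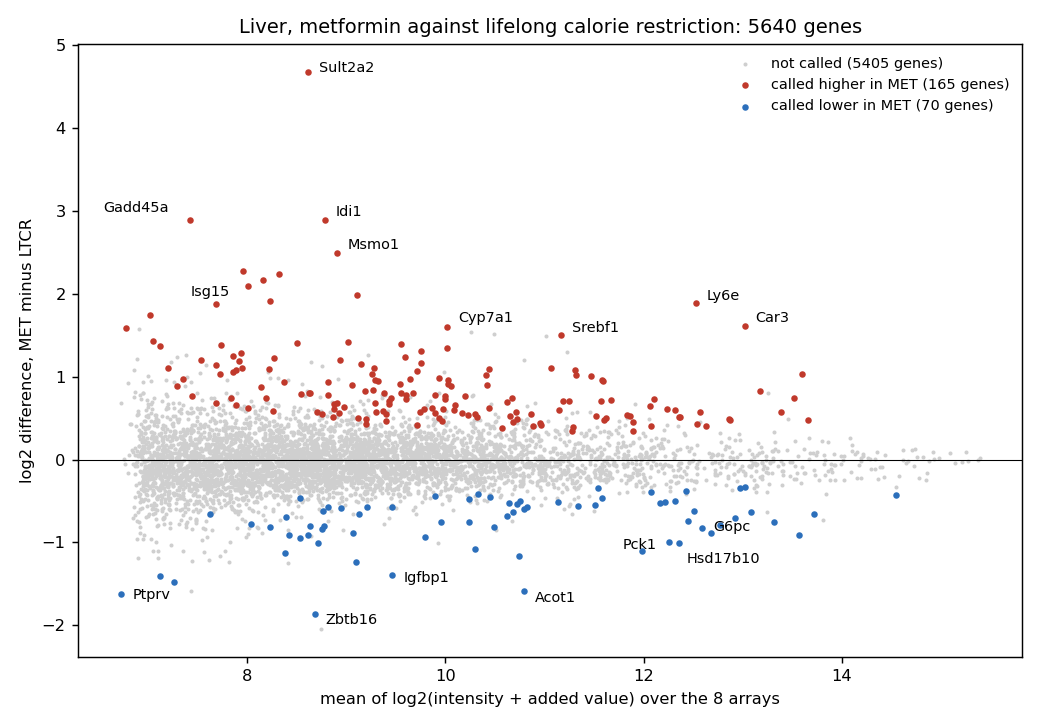
Log2 difference (MET minus LTCR, y axis) against the mean of log2(intensity + 28.8) over the 8 arrays (x axis) for 5640 genes, 1 point each. The 165 genes called higher in MET reach 4.68 (Sult2a2), while the 70 called lower reach -1.86 (Zbtb16).

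Control livers were not in the fit, so their level places each difference. On a log2 line with the LTCR mean at 0 and the MET mean at 1, the CON mean lay nearer to the MET mean for 134 of the 165 genes called higher and for 58 of the 70 called lower. It lay nearer to the LTCR mean for the other 31 and 12 genes. Of the 134 genes, 64 had a CON mean beyond the MET mean, and of the 58 genes 23 did. The median position was 0.91 for genes called higher and 0.86 for genes called lower. This is a description of group means with no test of MET or LTCR against CON, and genes were picked for their difference between MET and LTCR.

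**Figure D2:**
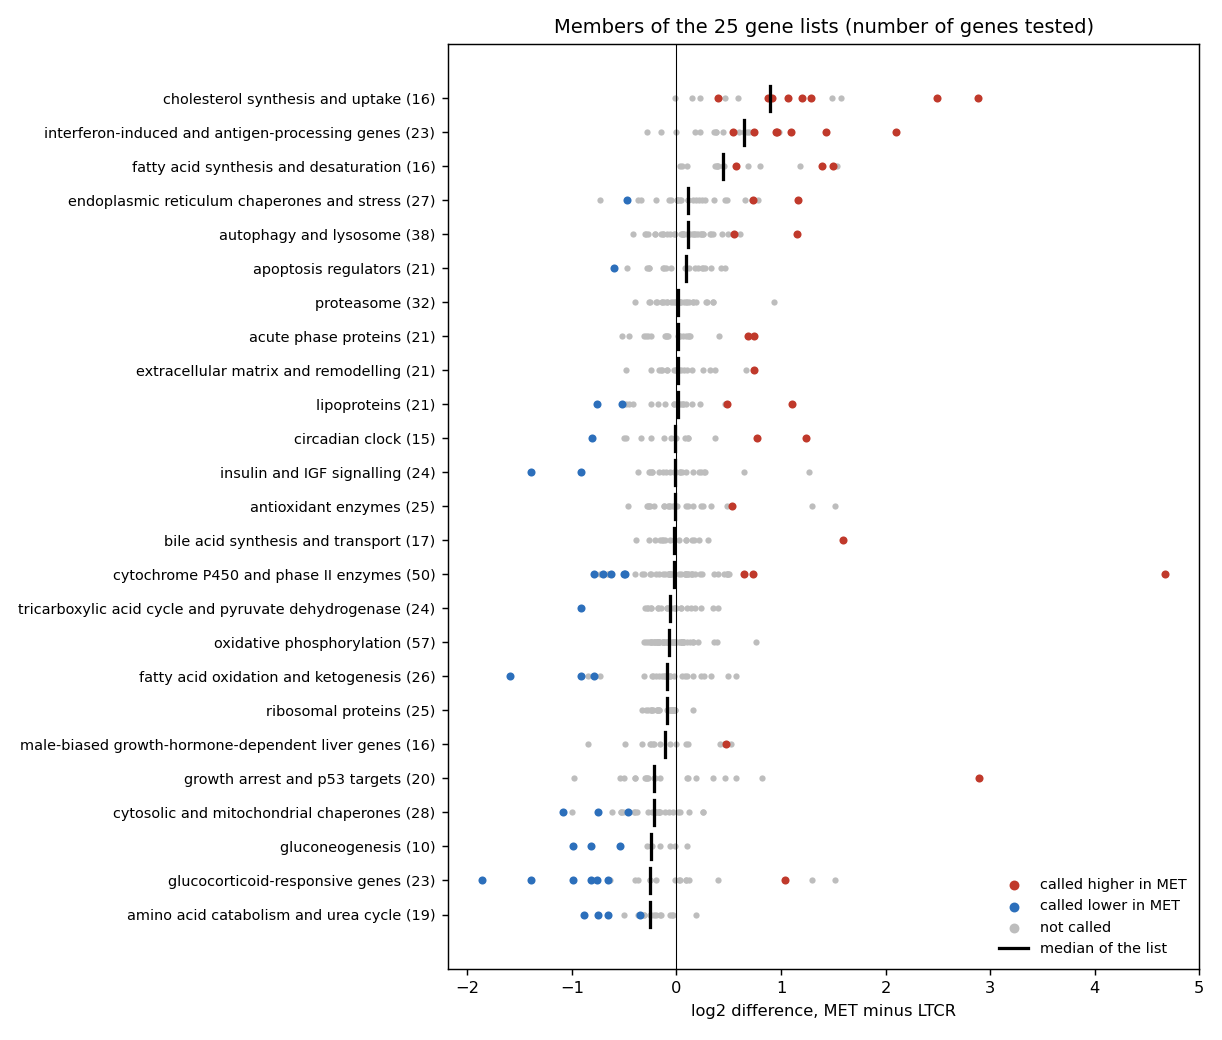
Log2 differences (MET minus LTCR, x axis) of the tested members of 25 gene lists (y axis, number tested in brackets), with the list median as a black bar, called members in red (higher in MET) or blue (lower in MET) and other members in grey. Cholesterol synthesis and uptake (median 0.89) and interferon-induced genes (0.65) stand at the top. Gluconeogenesis (-0.24), glucocorticoid-responsive genes (-0.25) and amino acid breakdown (-0.25) stand at the bottom.

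Some sterol synthesis genes were higher in MET livers. Of 16 tested members of the list of cholesterol synthesis and uptake, 8 were called higher and none lower. Differences were above 0 for 15 of 16, and the median was 0.89. For all 8 called members the CON mean lay nearer to the LTCR mean than to the MET mean. Idi1, which makes dimethylallyl diphosphate, read 2377.2, 910.1, 583.5 and 1479.4 in the MET livers, against 84.1, 96.4, 195.7 and 191.0 in the LTCR livers. Every MET array was above every LTCR array, MET 1 was highest and MET 3 lowest, and the difference was 2.89 ± 0.38, adjusted p = 0.00235. CON livers averaged 377 ± 238 for Idi1. Msmo1, an enzyme of the steps after lanosterol, read 1890.0, 1113.5, 498.5 and 1423.9 in the MET livers, against 162.2, 173.8, 170.2 and 190.1 in the LTCR livers. The LTCR arrays lay close together while the MET arrays spread over a wide range, again from MET 3 to MET 1 (difference 2.49 ± 0.31, adjusted p = 0.00179). CON livers averaged 468 ± 318 for Msmo1. Squalene epoxidase (Sqle), which adds the oxygen that sterol ring closure needs, read 829.5, 722.4, 518.7 and 840.4 in the MET livers, against 315.7, 274.7, 288.9 and 306.4 in the LTCR livers. These groups did not overlap either (difference 1.20 ± 0.15, adjusted p = 0.00197), and CON livers, at 363 ± 138, were close to LTCR.

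Further called members lie along the pathway, from the synthesis of HMG-CoA to the final reductase. Hmgcs1, which makes HMG-CoA, averaged 1228 ± 379.9 in MET livers and 564 ± 133 in LTCR livers (difference 1.06 ± 0.22, adjusted p = 0.0267). Squalene synthase (Fdft1), the branch point towards sterols, averaged 2139 ± 83.3 in MET livers and 1615 ± 106 in LTCR livers (difference 0.40 ± 0.09, adjusted p = 0.0328). Lanosterol synthase (Lss), which closes the rings, and Nsdhl, which takes part in removing the C4 methyl groups, differed by 0.87 ± 0.20 and 0.92 ± 0.20 (SE, adjusted p = 0.034 and 0.033). The final reductase Dhcr7 averaged 382 ± 183 in MET livers and 131 ± 31.1 in LTCR livers (difference 1.28 ± 0.27, adjusted p = 0.0289). Not called were mevalonate diphosphate decarboxylase (Mvd, 1.57 ± 0.41, adjusted p = 0.0631) and farnesyl diphosphate synthase (Fdps, 1.49 ± 0.45, adjusted p = 0.0933), whose MET arrays spread widely. Fdps read 8608.4, 2859.3, 1328.9 and 4319.5 in the MET livers, against 1182.2, 935.2, 1034.8 and 1903.3 in the LTCR livers, with only MET 3 inside the LTCR range. Lanosterol demethylase (Cyp51) at 0.47 (adjusted p = 0.348), mevalonate kinase (Mvk) at 0.23 (adjusted p = 0.361) and Ebp at -0.02 (adjusted p = 0.958) were also not called.

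Idi1, Msmo1 and Sqle stayed under the threshold with each of the 8 arrays left out in turn. The other calls did not: the adjusted p rose to 0.0855 without MET 4 for Hmgcs1, 0.0818 without MET 4 for Dhcr7, 0.0864 without MET 4 for Nsdhl, 0.0945 without LTCR 4 for Lss and 0.102 without LTCR 4 for Fdft1. They lost the call in 5, 6, 6, 6 and 7 of 8 such fits, with no change of sign. The count of called members was 3 without MET 1, MET 4, LTCR 2 or LTCR 3, 4 without LTCR 1 or LTCR 4, 6 without MET 2 and 11 without MET 3. The median stayed between 0.70 (without MET 1) and 1.03 (without MET 3). Without a filter 5 members were called, and 3 without the intensity trend.

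**Figure D3:**
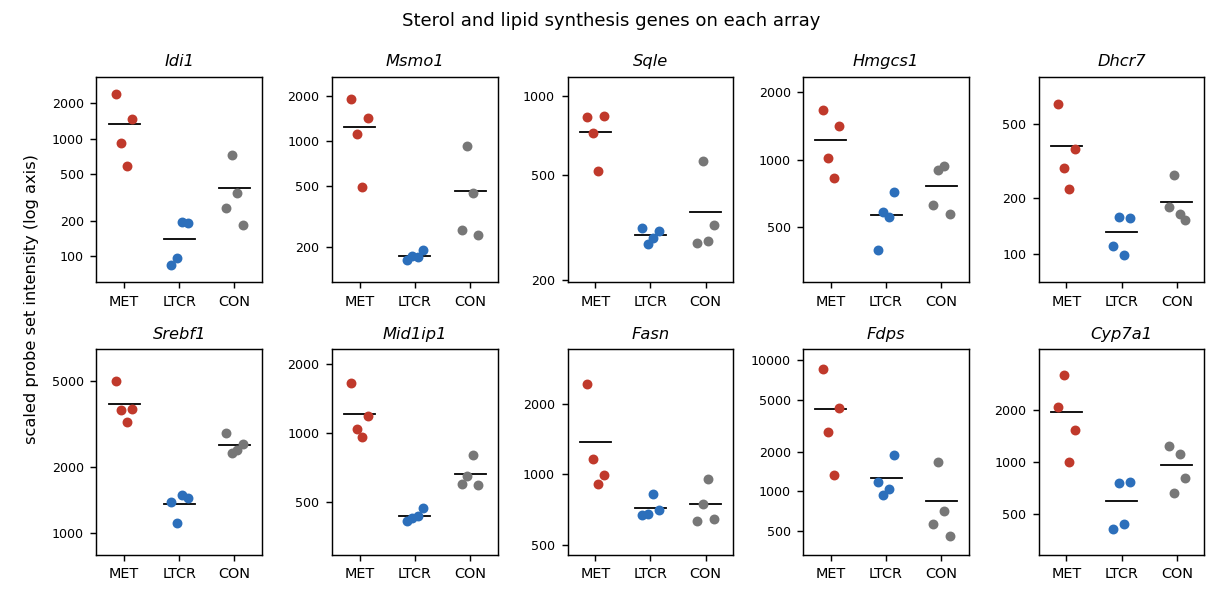
Scaled intensity (log axis) of 10 sterol and lipid genes on the 4 MET (red), 4 LTCR (blue) and 4 CON (grey) arrays, 1 point per array, with group means as bars. MET arrays lie above all LTCR arrays except for Fdps, and for Idi1 they run from 583.5 to 2377.2.

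Fatty acid synthesis genes also had higher means in MET livers, and how many passed the test depended on the estimate of the spread. Of 16 tested members, 3 were called higher and none lower. With the spread pooled over 8 groups or over the 7 without CON, 9 were called higher, beside 442 and 421 of 7503 probe sets. All 16 differences were above 0, and the median was 0.45. Srebf1, which encodes the SREBP-1 factors that drive lipogenic transcription, read 4995.1, 3660.1, 3246.2 and 3707.8 in the MET livers, against 1379.4, 1107.6, 1485.7 and 1438.5 in the LTCR livers. All MET arrays were above all LTCR arrays, and the CON mean, 2542 ± 239, lay between (difference 1.50 ± 0.14, adjusted p = 0.000566). Mid1ip1, a protein that promotes polymerisation of acetyl-CoA carboxylase, read 1655.4, 1046.1, 963.5 and 1185.1 in the MET livers, against 410.7, 426.6, 434.1 and 470.1 in the LTCR livers. The LTCR arrays were tight and none reached a MET array (difference 1.39 ± 0.16, adjusted p = 0.0011; a second probe set 1.21, also called). Elovl5, an elongase of polyunsaturated fatty acids, differed by 0.57 ± 0.13, adjusted p = 0.034. Its adjusted p rose to 0.102 without MET 1, and the call was lost in 7 of 8 fits with an array left out. The Srebf1 and Mid1ip1 calls held in all 8 fits.

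Fasn and Acly, which act on the way to palmitate, were not called. Fatty acid synthase (Fasn) read 2431.8, 1164.9, 904.9 and 988.2 in the MET livers, against 670.5, 673.4, 823.9 and 702.5 in the LTCR livers, without overlap but with MET 1 far above the other MET arrays (difference 0.80 ± 0.25, adjusted p = 0.109). ATP citrate lyase (Acly), which supplies cytosolic acetyl-CoA, differed by 0.68 ± 0.18, adjusted p = 0.0587. Thrsp, a lipogenic regulator related to Mid1ip1, read 5094.3, 2574.3, 619.6 and 2168.1 in the MET livers, against 668.5, 628.8, 547.0 and 998.1 in the LTCR livers, with MET 3 inside the LTCR range (difference 1.53 ± 0.48, adjusted p = 0.104). Stearoyl-CoA desaturase (Scd1) was near 0 at 0.03 ± 0.19, adjusted p = 0.95 (a second probe set -0.01), and its sign turned to -0.01 without MET 1, -0.10 without MET 2, -0.02 without MET 4 and -0.06 without LTCR 3. The desaturase Fads1 differed by 0.46 ± 0.20, adjusted p = 0.236. The elongase Elovl6 was measured by probe sets that part in the call: the brighter one gave 1.18 ± 0.46, adjusted p = 0.178, and the dimmer one 1.90 ± 0.38, adjusted p = 0.0220. The count of called members was 8 without MET 3, the lowest MET array for every gene of this list named here, and 2 without any other single array.

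Some interferon-induced genes were higher in MET than in LTCR livers. Of 23 tested members of the list, 7 were called higher and none lower, 20 of 23 differences were above 0, and the median was 0.65. For all 7 the CON mean lay beyond the MET mean, so LTCR livers were lowest and CON livers highest for these genes. Isg15 read 500.9, 450.5, 571.6 and 499.7 in the MET livers, against 177.3, 89.6, 106.9 and 43.8 in the LTCR livers. The groups were far apart (difference 2.10 ± 0.26, adjusted p = 0.00179), and CON livers averaged 849.8 ± 172. Of the immunity-related GTPases, which act on vacuoles around intracellular microbes, Igtp read 485.1, 336.8, 447.3 and 372.9 in the MET livers, against 146.1, 160.6, 222.4 and 179.9 in the LTCR livers (difference 1.09 ± 0.16, adjusted p = 0.00515). Its relative Ifi47 averaged 194 ± 54.5 in MET livers and 56.3 ± 30.8 in LTCR livers (difference 1.43 ± 0.30, adjusted p = 0.0276), and Iigp1 averaged 4323 ± 825 in MET livers and 2291 ± 806 in LTCR livers (difference 0.95 ± 0.22, adjusted p = 0.0413). In Iigp1 the lowest MET array (3212.5) was below the highest LTCR array (3390.9). Lgals3bp read 1057.7, 925.2, 1340.3 and 1055.9 in the MET livers, against 632.6, 543.0, 527.0 and 474.8 in the LTCR livers, with no overlap (difference 0.97 ± 0.13, adjusted p = 0.00329).

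The guanylate-binding protein Gbp3 differed by 0.74 ± 0.18, adjusted p = 0.0489, and Tap1, which carries peptides to MHC class I, by 0.54 ± 0.13, adjusted p = 0.0384. A second, dim probe set of Tap1 gave -0.51 with no call. The inducible proteasome subunits Psmb8 (0.67 ± 0.17, adjusted p = 0.056) and Psmb9 (0.98 ± 0.26, adjusted p = 0.0632) and the factor Irf7 (0.59 ± 0.16, adjusted p = 0.0632) missed the threshold without overlap between the groups. A second probe set of Irf7 gave -0.14, adjusted p = 0.580. Rsad2, an antiviral enzyme, was 0.74 ± 0.31, adjusted p = 0.211, and the MHC class I light chain B2m was -0.002, adjusted p = 0.995. Calls of Isg15, Igtp and Lgals3bp held with each array left out. The adjusted p of the others rose to 0.101 without MET 1 for Ifi47, 0.12 without MET 1 for Iigp1, 0.112 without MET 4 for Tap1 and 0.127 without LTCR 4 for Gbp3, which lost the call in all 8 fits. The count of called members was 3 without MET 1, MET 4, LTCR 1 or LTCR 2, 4 without MET 3 or LTCR 4, 5 without LTCR 3 and 7 without MET 2, and 4 with the replicate number as a block, without a filter or without the intensity trend. Ly6e, a membrane protein also induced by interferon, stood outside the list and read 11988.2, 10781.5, 9309.4 and 13596.7 in the MET livers, against 4021.4, 2633.1, 3245.4 and 2503.7 in the LTCR livers. No MET array came near an LTCR array, and CON livers averaged 11663 ± 1598 (difference 1.88 ± 0.16, adjusted p = 0.000353).

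Some macrophage markers were higher in MET livers too. Of 11 tested markers of Kupffer cells and macrophages, 6 were called higher and none lower, with a median difference of 0.76. The summed intensity of all 17 such markers on the array was 6214 to 8923 in MET, 3389 to 5028 in LTCR and 5682 to 6985 in CON livers. The mean log2 difference over the 17 was 0.58, with exact permutation p = 0.0286, the smallest that 4 against 4 arrays allow, and 0.157 after Benjamini-Hochberg adjustment over 11 cell types. Of the defining markers, Clec4f passed the filter and was not called (1.13 ± 0.47, adjusted p = 0.211), Csf1r was 0.76 ± 0.19, adjusted p = 0.056 (a second probe set -0.29, adjusted p = 0.378), and Marco was below the added value of 28.8 on all 8 arrays. In whole liver, fewer cells of a type and less RNA per cell cannot be told apart. Between MET and LTCR, these marker sums moved in the same direction as the interferon-induced genes, and their part in that result was not tested. The CON mean lay beyond the MET mean for all 7 called interferon-induced genes and for the marker Mpeg1. For the other called markers, C1qa, C1qc, Cd5l, Lyz2 and Ctss, it lay between LTCR and MET.

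Lysozyme 2 (Lyz2) read 488.7, 467.4, 702.2 and 582.6 in the MET livers, against 139.3, 73.2, 162.7 and 148.3 in the LTCR livers, with no overlap (difference 1.91 ± 0.21, adjusted p = 0.00105). The complement subunits C1qa and C1qc differed by 1.03 ± 0.21 and 0.76 ± 0.16 (SE, adjusted p = 0.022 and 0.03). The remaining subunit, C1qb, was not called and its difference was below 0: it read 316.1, 274.0, 412.6 and 335.8 on MET arrays and 361.8, 407.0, 323.3 and 524.9 on LTCR arrays (difference -0.25, adjusted p = 0.450). Cd68 (0.10, adjusted p = 0.743) and Cd14 (0.18, adjusted p = 0.608) were not called either. Cd5l, a secreted protein of tissue macrophages, differed by 0.93 ± 0.18, adjusted p = 0.0197, and the pore-forming Mpeg1 by 0.74 ± 0.14, adjusted p = 0.0207. Cathepsin S (Ctss), which trims the MHC class II invariant chain, differed by 1.15 ± 0.24, adjusted p = 0.025. H2-Aa, an MHC class II chain, read 764.2, 530.7, 526.7 and 517.5 in the MET livers, against 225.8, 52.4, 67.0 and 141.5 in the LTCR livers. All MET arrays were above 500 and all LTCR arrays under 230 (difference 2.16 ± 0.32, adjusted p = 0.00469). The Lyz2 and H2-Aa calls held with each array left out. The adjusted p of the others rose to 0.0725 without MET 1 for C1qa, 0.0886 without LTCR 4 for C1qc, 0.0527 without LTCR 4 for Cd5l, 0.061 without MET 4 for Mpeg1 and 0.0794 without MET 1 for Ctss.

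**Figure D4:**
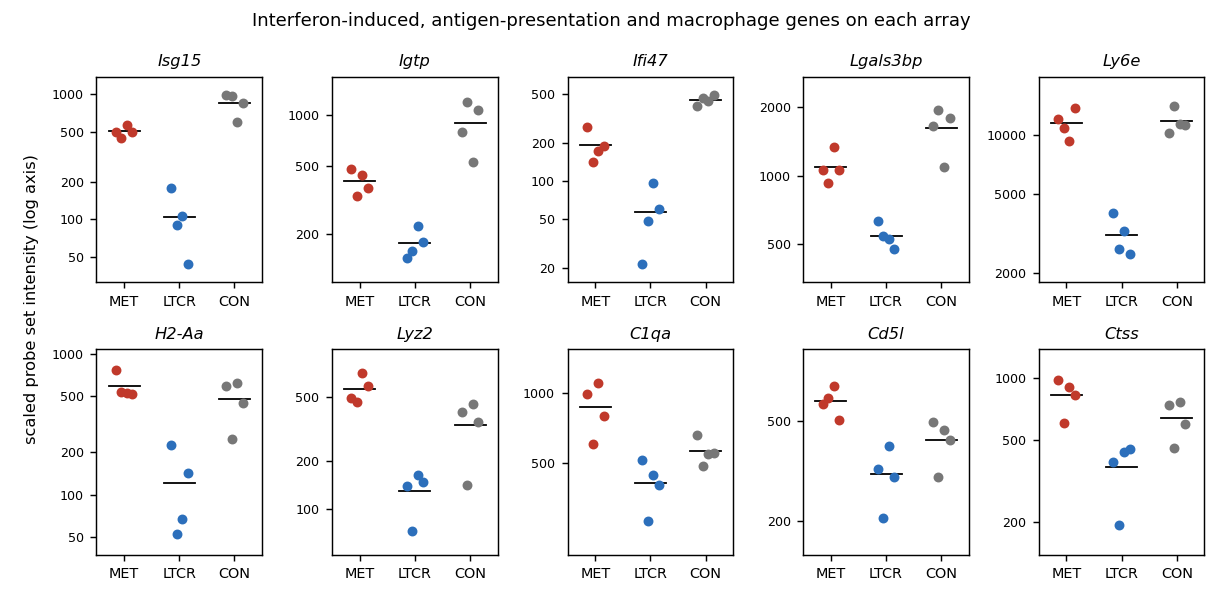
Scaled intensity (log axis) of 10 interferon-induced, antigen-presentation and macrophage genes on the 4 MET (red), 4 LTCR (blue) and 4 CON (grey) arrays, 1 point per array, with group means as bars. All MET arrays lie above all LTCR arrays in each panel; CON means of Isg15, Igtp, Ifi47 and Lgals3bp lie above the MET means.

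The gluconeogenic enzymes Pck1 and G6pc were lower in MET livers. Of 10 tested members of the gluconeogenesis list, 3 were called lower and none higher, 9 of 10 differences were below 0, and the median was -0.24. PEP carboxykinase (Pck1), the first committed enzyme, read 2420.6, 3042.8, 5160.7 and 3727.8 in the MET livers, against 6589.7, 6930.8, 6175.1 and 7954.1 in the LTCR livers. MET 3 came nearest to the LTCR range and no arrays overlapped (difference -0.99 ± 0.19, adjusted p = 0.0199). CON livers averaged 4222 ± 472. Glucose-6-phosphatase (G6pc), which releases free glucose, read 5512.8, 4901.6, 5175.9 and 3184.8 in the MET livers, against 10351.1, 8083.8, 6812.9 and 7687.4 in the LTCR livers. Again all MET arrays were below all LTCR arrays (difference -0.82 ± 0.17, adjusted p = 0.0276), and the CON mean was lower still at 3078 ± 559.9. The hepatocyte factor Hnf4a differed by -0.54 ± 0.13, adjusted p = 0.0491. Not called were pyruvate carboxylase (Pcx), at -0.28 (adjusted p = 0.127), and fructose-bisphosphatase (Fbp1), at 0.10 (adjusted p = 0.473). The adjusted p rose to 0.0585 without LTCR 4 for Pck1, 0.0693 without LTCR 1 for G6pc and 0.135 without MET 1 for Hnf4a. No member was called without LTCR 2 or without LTCR 4, 1 was without MET 2 or LTCR 1, 2 without MET 1, MET 4 or LTCR 3, and 3 without MET 3. Without a filter 1 member was called, and none without the intensity trend.

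Some enzymes of amino acid breakdown, which feed gluconeogenesis in fasting, were lower as well. Of 19 tested members, 4 were called lower and none higher, 18 of 19 differences were below 0, and the median was -0.25. Aass, the first enzyme of lysine breakdown, read 4961.0, 4472.0, 4143.8 and 5773.4 in the MET livers, against 7442.8, 9870.0, 8760.0 and 9665.0 in the LTCR livers. The groups did not overlap (difference -0.88 ± 0.12, adjusted p = 0.00313), and CON livers averaged 7058 ± 530.2. Ornithine aminotransferase (Oat) read 7249.4, 7347.9, 7054.2 and 10148.5 in the MET livers, against 14007.5, 10839.1, 12912.6 and 15638.6 in the LTCR livers. MET 4 lay above the other MET arrays but under every LTCR array (difference -0.75 ± 0.14, adjusted p = 0.0155). Tyrosine aminotransferase (Tat), induced by glucocorticoids, read 11835.8, 8954.7, 11630.2 and 10812.1 in the MET livers, against 17290.7, 17042.1, 13224.4 and 21346.8 in the LTCR livers. No arrays overlapped and the CON mean was 8250.1 ± 819.8 (difference -0.66 ± 0.14, adjusted p = 0.0262). Bckdhb, a subunit of branched-chain ketoacid dehydrogenase, differed by -0.35 ± 0.08, adjusted p = 0.0413. The Aass call held with each array left out, while the adjusted p rose to 0.052 without MET 1 for Oat, 0.0703 without MET 4 for Tat and 0.117 without MET 4 for Bckdhb. Called members numbered 1 without MET 1, 2 without MET 2, MET 4, LTCR 1, LTCR 2 or LTCR 4, 3 without LTCR 3 and 5 without MET 3, and 2 with the replicate number as a block and 1 without the intensity trend.

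Among 26 tested genes of fat oxidation and ketone synthesis, 3 were called lower and none higher, with a median of -0.09 and 17 differences below 0. The thioesterase Acot1, a target of PPAR alpha, read 698.4, 1617.0, 1028.0 and 824.0 in the MET livers, against 4024.6, 2927.9, 3663.2 and 1970.7 in the LTCR livers. The highest MET array stayed under the lowest LTCR array (difference -1.59 ± 0.26, adjusted p = 0.00857), and CON livers averaged 1074 ± 193. Cyp4a10, a fatty acid omega-hydroxylase and PPAR alpha target, read 3900.9, 6930.3, 5791.3 and 5014.5 in the MET livers, against 8113.9, 9602.4, 9882.3 and 9200.3 in the LTCR livers. Here CON livers, at 8376 ± 500.2, were near LTCR (difference -0.79 ± 0.15, adjusted p = 0.0197). Pdk4, which blocks pyruvate dehydrogenase and so spares glucose, read 270.4, 298.0, 207.3 and 258.7 in the MET livers, against 510.8, 521.0, 742.0 and 337.7 in the LTCR livers (difference -0.91 ± 0.20, adjusted p = 0.034). Its call was lost in the fits that pooled the spread over 8 or 7 groups. The receptor itself, Ppara, read 4747.4, 4451.7, 1579.4 and 4053.3 in the MET livers, against 2401.5, 1650.2, 3891.1 and 1780.9 in the LTCR livers, with MET 3 lowest of all 8 arrays (difference 0.57 ± 0.35, adjusted p = 0.388). Carnitine palmitoyltransferase 1 (Cpt1a), the gate of mitochondrial oxidation, differed by 0.33 ± 0.10, adjusted p = 0.0863, above 0 where the called members were below. Other PPAR alpha targets that missed the threshold were Ehhadh (-0.85, adjusted p = 0.0516) and Cyp4a14 (-0.73, adjusted p = 0.0685). With an array left out, Acot1 was always called, and the adjusted p rose to 0.0885 without MET 4 for Pdk4 and 0.058 without MET 4 for Cyp4a10. Called lower were 1 member without MET 4 or LTCR 2, 2 without LTCR 1, LTCR 3 or LTCR 4, 3 without MET 1, and 4 without MET 2 or MET 3, with 1 without the intensity trend.

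Of 23 tested glucocorticoid-responsive genes, 6 were called lower in MET livers and 1 higher, with a median of -0.25. The list was mixed, with 14 differences below 0 and 9 above, the highest at 1.52. Pck1 and Tat, described above, are among the 6, and so is Igfbp1, described below. Over the 17 members that have a single-transcript probe set, 3 were called lower and the median was -0.01, and without the intensity trend 2 of 23 were called lower. Fkbp5, a co-chaperone of the glucocorticoid receptor, read 992.9, 960.0, 1252.7 and 1028.8 in the MET livers, against 1846.3, 1737.5, 1791.2 and 2145.2 in the LTCR livers. The groups were well apart, and CON livers, at 817 ± 108, were lowest (difference -0.81 ± 0.11, adjusted p = 0.00329). Zbtb16, a transcriptional repressor, read 231.9, 484.0, 112.9 and 86.6 in the MET livers, against 671.7, 507.9, 816.1 and 1157.4 in the LTCR livers. MET 2 reached close to the lowest LTCR array, and the difference was the largest fall of all called genes (-1.86 ± 0.41, adjusted p = 0.0328). Angptl4, an inhibitor of lipoprotein lipase that rises in fasting, differed by -0.76 ± 0.15, adjusted p = 0.022. Of its other probe sets, 1 gave -0.57, also called, and 1 gave 0.01 without a call. Corticosteroid-binding globulin (Serpina6), the blood carrier of corticosterone, was the member called higher and read 18720.6, 16525.6, 18432.4 and 17459.2 in the MET livers, against 10565.6, 9351.1, 8993.6 and 6292.8 in the LTCR livers. No LTCR array came near a MET array (difference 1.04 ± 0.14, adjusted p = 0.00235), and CON livers averaged 12959 ± 859. Fkbp5, Igfbp1 and Serpina6 were called with each array left out, but the adjusted p rose to 0.0958 without LTCR 4 for Zbtb16 and 0.0732 without MET 4 for Angptl4. Between 2 (without LTCR 2) and 7 (without MET 3) members were called lower, with 3 without MET 1, MET 4, LTCR 1 or LTCR 4 and 4 without MET 2 or LTCR 3.

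Of 24 tested genes of insulin and IGF signalling, 2 were called lower and none higher, both of them binding proteins of the IGFs. Igfbp1, which insulin represses, read 539.3, 544.8, 354.9 and 261.3 in the MET livers, against 1381.9, 984.6, 913.2 and 1246.2 in the LTCR livers. All MET arrays were far below all LTCR arrays, and CON livers averaged 548 ± 268 (difference -1.39 ± 0.22, adjusted p = 0.0077). Igfbp2 read 9599.6, 7618.8, 12835.5 and 6439.7 in the MET livers, against 17159.3, 16695.4, 15433.7 and 17329.7 in the LTCR livers. LTCR arrays were tight and above every MET array (difference -0.91 ± 0.17, adjusted p = 0.0179, adjusted p rising to 0.0527 without LTCR 4). Igf1 itself differed by -0.25 ± 0.08, adjusted p = 0.109, without a call. Ghr, the growth hormone receptor, was higher at 0.48 ± 0.11, adjusted p = 0.0386, and a second probe set gave 0.83, also called. It was the only called gene among 16 tested male-biased growth-hormone-dependent genes, and the adjusted p rose to 0.113 without MET 1.

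Some cytosolic chaperones were lower in MET livers. Of 28 tested cytosolic and mitochondrial chaperone genes, 3 were called lower and none higher, 23 differences were below 0, and the median was -0.22. The constitutive Hsp70 (Hspa8) read 4814.5, 3979.4, 4868.2 and 3654.9 in the MET livers, against 6414.4, 7455.8, 8429.2 and 6775.2 in the LTCR livers. The groups did not overlap, and CON livers averaged 4303 ± 644 (difference -0.75 ± 0.12, adjusted p = 0.0077). Hsph1, a large Hsp70-type exchange factor, read 1046.1, 500.1, 1161.1 and 796.9 in the MET livers, against 1730.3, 1812.9, 2483.0 and 1350.1 in the LTCR livers (difference -1.08 ± 0.25, adjusted p = 0.0367). The small heat shock protein Hspb8 differed by -0.46 ± 0.11, adjusted p = 0.0491. Hspa8 stayed called with each array left out, while the adjusted p rose to 0.099 without MET 4 for Hsph1 and 0.135 without LTCR 2 for Hspb8. Called members numbered 3 without MET 3, 2 without LTCR 4 and 1 without any other single array, 1 without a filter or the intensity trend, and 5 with the spread pooled over 8 or 7 groups.

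Chaperones of the endoplasmic reticulum did not share that direction. Of 27 tested genes, 2 were called higher and 1 lower, with a median of 0.11. The disulfide isomerase Pdia4 read 1631.7, 1461.1, 893.9 and 1177.7 in the MET livers, against 618.9, 428.6, 826.5 and 404.8 in the LTCR livers. The nearest arrays, MET 3 and LTCR 3, were close to each other without overlap (difference 1.16 ± 0.23, adjusted p = 0.022). Pdia6, of the same family, differed by 0.73 ± 0.17, adjusted p = 0.0432, and its other probe sets were called higher too (1.57 and 0.85). The chaperone Hspa5 (BiP) differed by 0.46 ± 0.15, adjusted p = 0.113, without a call. Asparagine synthetase (Asns), a target of the amino acid response, was lower at -0.48 ± 0.10, adjusted p = 0.03. The adjusted p rose to 0.0725 without MET 1 for Pdia4, 0.123 without MET 1 for Pdia6 and 0.0942 without LTCR 4 for Asns. None of the 3 was called without MET 1, MET 4, LTCR 2 or LTCR 4. Called higher were 6 members with the spread pooled over 8 groups, 4 over 7 groups and none without the intensity trend.

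**Figure D5:**
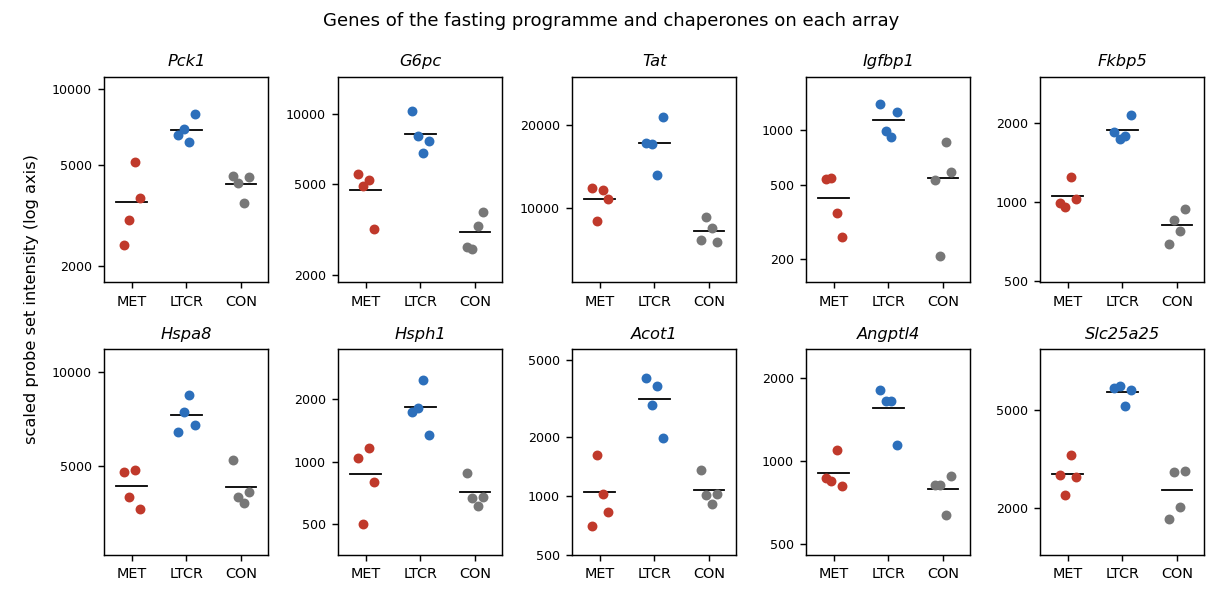
Scaled intensity (log axis) of 10 genes of the fasting programme, chaperones and a mitochondrial carrier on the 4 MET (red), 4 LTCR (blue) and 4 CON (grey) arrays, 1 point per array, with group means as bars. All MET arrays lie below all LTCR arrays in each panel, and for Hspa8 they run from 3654.9 to 4868.2.

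The gene with the largest difference of all was Sult2a2, a sulfotransferase of bile acids and hydroxysteroids. It read 2507.6, 4274.4, 487.5 and 2687.9 in the MET livers, against 79.2, 73.7, 45.8 and 14.7 in the LTCR livers. Even the lowest MET array, MET 3, was several times above the highest LTCR array, and the lowest LTCR array was under the added value (difference 4.68 ± 0.55, adjusted p = 0.00144). CON livers averaged 477 ± 405, with a wide spread. Gadd45a, a growth arrest gene, read 506.7, 451.4, 397.4 and 403.9 in the MET livers, against 73.0, 29.6, 19.2 and 25.6 in the LTCR livers. The MET arrays lay close together, while 2 of 4 LTCR arrays were below the added value (difference 2.89 ± 0.24, adjusted p = 0.000353). CON livers averaged 598 ± 156. It was the only called gene of 20 tested growth arrest and p53 target genes, against 3 called higher with the spread pooled over 8 or 7 groups.

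Several other large rises were in single genes of unlike roles. Serpina12 (vaspin), a serpin known as an adipokine, read 1138.8, 555.9, 259.2 and 422.6 in the MET livers, against 70.8, 131.2, 110.6 and 45.3 in the LTCR livers (difference 2.27 ± 0.38, adjusted p = 0.00928). Wfdc2, a secreted protein with WAP domains, averaged 681 ± 167 in MET livers and 124 ± 48.4 in LTCR livers (difference 2.24 ± 0.24, adjusted p = 0.000942). In both, no arrays overlapped. Carbonic anhydrase 3 (Car3), an abundant cytosolic enzyme of male rodent liver, read 18058.3, 14315.0, 13238.6 and 12937.7 in the MET livers, against 4368.5, 5222.0, 6763.0 and 3228.3 in the LTCR livers. CON livers were nearer to MET, at 15280.1 ± 675 (difference 1.61 ± 0.19, adjusted p = 0.00163). Hao2, a peroxisomal hydroxyacid oxidase, differed by 1.88 ± 0.25, adjusted p = 0.00253, and Nrep, a neuronal regeneration-related protein, by 1.98 ± 0.19, adjusted p = 0.000566. The chemokine Cxcl1, which attracts neutrophils, read 923.0, 912.1, 900.7 and 594.6 in the MET livers, against 314.0, 237.7, 368.0 and 248.2 in the LTCR livers. MET 4 was the lowest MET array and still above all LTCR arrays (difference 1.42 ± 0.18, adjusted p = 0.00174; the call was lost in the fit that pooled the spread over 7 groups). Each of these genes kept its call with any array left out.

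Csrp3, a LIM protein of striated muscle, was higher in MET livers by 1.74 ± 0.31, adjusted p = 0.0125. The summed intensity of 18 skeletal muscle markers ran the other way, with none of 9 tested markers called. It was 2604 to 3279 on MET, 3320 to 4563 on LTCR and 2854 to 19907 on CON arrays. The highest CON sum was far above every MET and LTCR sum. The part of that CON array in the CON means given here was not tested. The mean log2 difference over the 18 was -0.33 (exact permutation p = 0.0286, adjusted 0.157). The calcium-binding Sri differed by 1.40 ± 0.29, adjusted p = 0.0267. Marcks, a protein kinase C substrate, read 176.3, 128.7, 160.6 and 182.8 in the MET livers, against 20.0, 18.0, 108.0 and 22.6 in the LTCR livers, with 3 of 4 LTCR arrays below the added value (difference 1.58 ± 0.36, adjusted p = 0.0366). The adjusted p rose to 0.0555 without MET 1 for Csrp3, 0.0839 without MET 1 for Sri and 0.0942 without LTCR 4 for Marcks.

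Bile acid and lipoprotein genes gave few calls. Cyp7a1, the rate-limiting enzyme of bile acid synthesis, read 2069.4, 3178.7, 993.3 and 1530.2 in the MET livers, against 408.0, 753.8, 441.1 and 770.1 in the LTCR livers. All MET arrays were above all LTCR arrays, and CON livers averaged 955 ± 266 (difference 1.60 ± 0.32, adjusted p = 0.022, adjusted p rising to 0.0714 without MET 1). It was the only call among 17 tested bile acid genes. Of 21 tested lipoprotein genes, 2 were called higher and 2 lower. The phospholipid transfer protein Pltp read 4095.3, 3057.3, 2083.6 and 3627.3 in the MET livers, against 1616.6, 1495.6, 1152.8 and 1505.0 in the LTCR livers. CON livers were nearer to LTCR, at 1886.4 ± 391.8 (difference 1.11 ± 0.19, adjusted p = 0.01). The lipase activator Apoc2 differed by 0.48 ± 0.08, adjusted p = 0.00967. Lower were Angptl4 and the HDL receptor Scarb1 (-0.52 ± 0.12, adjusted p = 0.0385, rising to 0.113 without LTCR 4). Apoa4, an intestinal and hepatic apolipoprotein, read 11301.8, 18519.5, 10484.0 and 16975.4 in the MET livers, against 17246.8, 11955.0, 10881.2 and 14122.7 in the LTCR livers, wholly overlapping (difference 0.06 ± 0.19, adjusted p = 0.904), and its sign turned to -0.08 without MET 2 and to -0.04 without MET 4 or without LTCR 3.

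Cytochrome P450 and phase II enzymes split, with 3 of 50 tested genes called higher and 5 lower and a median of -0.03. Besides Sult2a2, the glutathione transferases Gsta3 (0.65 ± 0.13, adjusted p = 0.022) and Mgst3 (0.74 ± 0.15, adjusted p = 0.024) were higher. Cyp2c39, a retinoic acid hydroxylase, read 5119.6, 6828.4, 6942.0 and 5513.7 in the MET livers, against 10412.0, 10340.1, 8565.4 and 10318.7 in the LTCR livers. The groups did not overlap, and CON livers averaged 5067 ± 272 (difference -0.70 ± 0.12, adjusted p = 0.00833). The adjusted p of Gsta3 rose to 0.0662 without MET 4 and that of Mgst3 to 0.078 without MET 4. Called members were 1 higher and 1 lower without LTCR 4, against 6 higher and 7 lower without MET 3. Called lower were 2 without a filter or with the replicate number as a block, 3 with equal medians and 1 without the intensity trend, where 1 was called higher, against 5 higher with the spread pooled over 7 groups.

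A few clock genes differed, with no common direction. Of 15 tested clock genes, 2 were called higher and 1 lower, with a median of -0.01. Dbp, an output factor under CLOCK and BMAL1, read 1088.0, 1065.2, 1243.6 and 1251.6 in the MET livers, against 492.6, 470.4, 571.8 and 384.0 in the LTCR livers. Both groups were tight and far apart (difference 1.24 ± 0.13, adjusted p = 0.000918), and CON livers averaged 1104 ± 30.6. The repressor Bhlhe40 differed by 0.77 ± 0.12, adjusted p = 0.00829, with MET 1 highest. Cry1, a core repressor, was lower at -0.81 ± 0.16, adjusted p = 0.022, rising to 0.0635 without MET 4. The part of time of day in these values was not tested, as no hour of death was given.

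Other lists gave 0 to 2 calls. Of 24 tested genes of the citric acid cycle and pyruvate dehydrogenase, Pdk4 was the only call. None of 57 tested genes of oxidative phosphorylation (median -0.07), 25 ribosomal protein genes (-0.09) or 32 proteasome genes (0.02) was called by limma with the spread of MET and LTCR alone. With the spread pooled over 8 groups, 2 were called higher and 3 lower in oxidative phosphorylation, 1 lower among ribosomal protein genes, and 3 higher and 2 lower in the proteasome. The same pooled fit called 442 of 7503 probe sets higher and 322 lower. At an unadjusted p under 0.05 in the reported limma fit, these lists had 10, 4 and 6 genes. All tested probe sets gave 1500 of 7503, a share that none of these lists exceeded. In oxidative phosphorylation 3 of 57 members were lower in all MET arrays than in any LTCR array, near the share over all probe sets (419 of 7503). The proteasome median was -0.01 after quantile normalization. Without MET 3, 3 oxidative phosphorylation genes were called higher and 1 lower, and 2 ribosomal protein genes lower. Of 38 lysosomal and autophagy genes, Ctss and Hexa, a hexosaminidase subunit (0.55 ± 0.13, adjusted p = 0.0398), were higher, against 5 and 4 genes with the spread pooled over 8 and 7 groups and none without the intensity trend. Among 21 acute phase genes, hepcidin (Hamp), the iron hormone, read 19067.1, 14101.6, 14133.8 and 13846.9 in the MET livers, against 10334.0, 7091.5, 8319.7 and 11038.9 in the LTCR livers, and serum amyloid A2 (Saa2) averaged 769.5 ± 95.7 in MET livers and 475 ± 111 in LTCR livers. Their differences were 0.74 ± 0.15, adjusted p = 0.022, and 0.68 ± 0.16, adjusted p = 0.0413, and both calls were lost when the spread was pooled over 8 or 7 groups. A second probe set of Saa2 gave 0.31 without a call. Single calls were thioredoxin (Txn1, 0.53 ± 0.11, adjusted p = 0.025) of 25 antioxidant genes, the matrix protein Tgfbi (0.74 ± 0.16, adjusted p = 0.029) of 21, and lower Bnip3 (-0.60 ± 0.12, adjusted p = 0.022), a mitophagy receptor, of 21 apoptosis genes. With an array left out, the adjusted p rose to 0.114 without MET 4 for Hexa, 0.0591 without MET 1 for Hamp, 0.111 without LTCR 2 for Saa2, 0.0818 without MET 4 for Txn1, 0.0918 without MET 1 for Tgfbi and 0.0721 without MET 1 for Bnip3.

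Among single genes that were lower in MET livers, the mitochondrial ATP-magnesium carrier Slc25a25 read 2733.6, 2262.7, 3286.5 and 2681.9 in the MET livers, against 6159.4, 6280.8, 5191.7 and 6016.3 in the LTCR livers. The groups were far apart, and CON livers, at 2369.8 ± 528, were near MET (difference -1.11 ± 0.12, adjusted p = 0.000918). Hsd17b10, a mitochondrial dehydrogenase of isoleucine and steroid metabolism, read 2464.9, 4284.8, 3861.1 and 4479.4 in the MET livers, against 8108.5, 7445.6, 7208.8 and 7069.3 in the LTCR livers (difference -1.01 ± 0.16, adjusted p = 0.0077). Choline kinase alpha (Chka), the first step of phosphatidylcholine synthesis from choline, differed by -1.004 ± 0.13, adjusted p = 0.00235. St3gal5, which makes the ganglioside GM3, averaged 1148 ± 315 in MET livers and 2557 ± 475 in LTCR livers (difference -1.16 ± 0.20, adjusted p = 0.01). Cdip1, a p53-induced protein, differed by -1.24 ± 0.15, adjusted p = 0.00163, while its other probe set gave -0.22 without a call. The RNA-binding Rbpms differed by -0.93 ± 0.15, adjusted p = 0.00844, and its other probe set gave -0.49 without a call. The phosphatase Ptprv read 30.4, 36.5, 30.4 and 29.9 in the MET livers, against 134.6, 234.4, 143.6 and 133.8 in the LTCR livers, so its MET arrays were just above the added value (difference -1.62 ± 0.26, adjusted p = 0.00817). All 7 kept their calls with any array left out.

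The ribosome biogenesis factor Utp14a (-1.48 ± 0.32, adjusted p = 0.0313), the CDK5 activator Cdk5r1 (-1.40 ± 0.27, adjusted p = 0.0204), the vesicle GTPase Rab3a (-1.12 ± 0.27, adjusted p = 0.0476), the interleukin-1 receptor Il1r1 (-0.94 ± 0.21, adjusted p = 0.034) and the phosphate transporter Slc17a1 (-0.91 ± 0.18, adjusted p = 0.022) were called lower in MET livers as well. Their adjusted p rose to 0.0996 without LTCR 4 for Utp14a, 0.0633 without LTCR 2 for Cdk5r1, 0.116 without LTCR 1 for Rab3a, 0.102 without MET 4 for Il1r1 and 0.069 without MET 1 for Slc17a1. Probe sets of Ly6e, Zbtb16, Nsdhl, Igf1, Scd1, Igfbp1, Cdip1, St3gal5, Cyp4a10, Ghr, Angptl4, Cry1 and Saa2 are marked by their names as shared with related or variant transcripts. Sult2a2, Acot1, Cyp2c39 and Lyz2 have close paralogs, whose part in the reading was not tested.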

How the data were processed

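Liver RNA of 8 mice (4 MET, 4 LTCR) was compared, and levels of 4 CON mice were read beside them. The deposited table holds 1 linear intensity per probe set and array, which the authors had already scaled: the trimmed mean of the 8 columns was 499.86 to 499.87. That statement comes from the table itself. The software, background correction, detection calls and batches are not given in the sources used here. The platform annotation names 1 gene for 10833 of 12422 probe sets, several for 396 and none for 1193, and genes were named only from the first kind.

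A value of 28.8 (the 20th percentile of the 8 arrays) was added to each intensity, and log2 was taken. Probe sets with a mean intensity above 95.4 (the 40th percentile) entered a linear model for MET minus LTCR (R 4.3.3, limma 3.58.1), moderated by eBayes with an intensity trend on 6 residual and 5.24 prior degrees of freedom, and p-values were adjusted by Benjamini-Hochberg over 7503. P-values set the difference against the spread between arrays, which eBayes moderates with the spread of other probe sets. The fit was tested on simulated data. For each gene the brightest probe set was used.

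Lists and members were chosen with earlier results of these data known. Named genes were the 20 largest rises and 20 largest falls among called genes without overlap, up to 5 called members of each list by smallest p, 11 genes fixed by name, and other members of the lists. Alternatives were the scaling, added value, filter, pooled spread, a block for the replicate number, other probe set choices, no intensity trend, and leaving out each array. Replicate numbers did not pair arrays: deviations of same-numbered arrays from their group means correlated at -0.05, 0.01, -0.21 and -0.03. CON was left out of the fit because the question was MET against LTCR.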

Additional observations from a re-analysis of the deposited data

Results flagged for a closer look

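Within a group of 4 arrays, 1 array lay apart from the other 3 for 16 of 236 groups tested, where chance flags about 1 in 20 groups. No array held more than 3 of these flags. Among MET arrays, H2-Aa was high on MET 1 (764.2, others 517.5 to 530.7), as were Bhlhe40 on MET 1 (1863.7, others 1384.9 to 1434.7) and Hamp on MET 1 (19067.1, others 13846.9 to 14133.8). Ptprv was highest on MET 2 (36.5, others 29.9 to 30.4), and Oat on MET 4 (10148.5, others 7054.2 to 7347.9). Lowest were Cxcl1 on MET 4 (594.6, others 900.7 to 923.0), Ppara on MET 3 (1579.4, others 4053.3 to 4747.4) and St6galnac6 on MET 3 (309.4, others 471.7 to 487.9).

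Among LTCR arrays, Marcks was high on LTCR 3 (108.0, others 18.0 to 22.6), Ptprv on LTCR 2 (234.4, others 133.8 to 143.6) and Acly on LTCR 4 (1561.8, others 1439.2 to 1454.8). Lowest were Asns on LTCR 1 (1251.4, others 1430.0 to 1469.7), Psmb9 on LTCR 1 (94.6, others 227.0 to 262.5) and Rsad2 on LTCR 1 (25.5, others 88.0 to 106.2). Cyp2c39 on LTCR 3 (8565.4, others 10318.7 to 10412.0) and Fads1 on LTCR 3 (4186.4, others 5465.3 to 5647.4) were low as well.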

How the results depend on the processing

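The count of 282 called probe sets (200 higher in MET, 82 lower) was 764 (442 and 322) with the spread pooled over all 8 groups, of which 249 were shared with the reported calls, and 719 (421 and 298) over the 7 groups without CON. It was 127 (95 and 32) without the intensity trend, and without a filter 50 probe sets were called lower. With the replicate number as a block, although the numbers do not pair these arrays, it was 145 (107 and 38). Leaving out 1 array gave 104 to 466 calls, 73 to 281 higher and 25 to 185 lower; each such fit has fewer arrays, and the cause of the rise without MET 3 was not tested. Quantile normalization, equal medians, both other added values, the stricter filter, 1 probe set per gene and single-transcript probe sets gave 238 to 293 calls. Of 99 named genes past the threshold, 39 stayed past it in all alternatives, 41 with each array left out, and none turned its sign. The call was lost for 47 of the 99 without the intensity trend, for 31 with the replicate block, for 27 without a filter, for 5 each with an added value of 1 or equal medians, and for 1 with quantile normalization. It was lost for 10 with the spread pooled over 8 groups (Cd5l, Cd74, Gbp3, Hamp, Hnf4a, Hspb8, Mgst3, Mpeg1, Pdk4 and Saa2) and for 14 over the 7 groups without CON (C1qa, Cd5l, Cd74, Ctss, Cxcl1, Fdft1, G6pc, Gbp3, Hamp, Hspb8, Mpeg1, Oat, Pdk4 and Saa2). Signs turned for 2 genes that were not called: Apoa4 (-0.080 to 0.193 with 1 array left out), below 0 without MET 2, MET 4 or LTCR 3, and Scd1 (-0.101 to 0.253), below 0 without MET 1, MET 2, MET 4 or LTCR 3. With no detection calls, dim genes such as Ptprv, Marcks and Gadd45a near the added value have sizes that depend on it.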

Other observations

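Some called genes outside the lists, chosen after their values were seen, add to the description. The sialyltransferase St6gal1, which caps glycoproteins, read 1448.4, 1231.4, 1250.3 and 1469.5 in the MET livers, against 853.6, 536.2, 713.6 and 599.3 in the LTCR livers (difference 0.98 ± 0.14, adjusted p = 0.00469; a second probe set 1.42, also called), and St6galnac6, which acts on gangliosides, differed by 0.94 ± 0.19, adjusted p = 0.022. Cytoskeletal Actg1 read 3405.0, 3689.7, 3579.6 and 4041.0 in the MET livers, against 1368.3, 1889.5, 1659.2 and 2019.5 in the LTCR livers, with no overlap (difference 1.08 ± 0.12, adjusted p = 0.00115), and CON livers averaged 5773 ± 813. The actin-binding Tmsb4x differed by 1.31 ± 0.24, adjusted p = 0.0144, and keratin 8 (Krt8), a keratin of hepatocytes and bile ducts, by 0.74 ± 0.12, adjusted p = 0.00761. MHC class II genes Cd74 and H2-Ab1 were higher as H2-Aa was, by 1.10 ± 0.20 and 1.38 ± 0.30 (adjusted p = 0.0157 and 0.0328).

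In methyl group metabolism, Gamt, which makes creatine, was higher by 0.71 ± 0.13, adjusted p = 0.0183, and Ahcy, which removes S-adenosylhomocysteine, was lower, at -0.43 ± 0.10, adjusted p = 0.0337. Of 2 other probe sets of Ahcy, 1 was called lower (-0.85) and 1 was not called (-0.17). Dio1, which deiodinates thyroid hormone, read 576.8, 433.3, 298.2 and 505.9 in the MET livers, against 117.9, 161.0, 286.7 and 160.2 in the LTCR livers (difference 1.22 ± 0.25, adjusted p = 0.0227). Cyp26a1, which breaks down retinoic acid, read 261.4, 217.0, 403.6 and 502.2 in the MET livers, against 163.5, 114.3, 94.2 and 121.6 in the LTCR livers (difference 1.25 ± 0.25, adjusted p = 0.022). Calls of St6gal1, Actg1, Tmsb4x and Krt8 held with each array left out. The adjusted p rose to 0.0759 without MET 4 for St6galnac6, 0.052 without MET 1 for Cd74, 0.104 without MET 1 for H2-Ab1, 0.055 without LTCR 4 for Gamt, 0.102 without LTCR 4 for Ahcy, 0.0765 without MET 1 for Dio1 and 0.0625 without MET 4 for Cyp26a1.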
